A study of Homo sapiens with 6 samples.

Results

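Chromatin sites that were open before and 6 h after phorbol ester treatment of K562 cells but had no peak at 72 h are described here. These late-lost sites were chosen by the deposited peak calls: they were the 319 of 181135 sites in the authors' table that overlapped, by at least 1 base, a deposited peak in both 0 h and both 6 h libraries and in neither 72 h library. K562 is a human line established from a chronic myelogenous leukaemia, and all cells were wild type. The labels give 25 nM phorbol 12-myristate 13-acetate (PMA) for every group, for 0, 6 or 72 h, so the 0 h cells are the untreated state. Each time had 2 ATAC-seq libraries, and the medium was renewed during the longest treatment. The labels call the treatment megakaryocyte differentiation. All data come from 1 leukaemia line, and the labels do not say whether the libraries of a time came from separate cultures. The p-values therefore measure the spread between these libraries, which may be technical.

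ATAC-seq tags DNA with a transposase wherever it is not wrapped or covered, so that open promoters and enhancers collect many reads. PMA mimics diacylglycerol and activates protein kinase C, which signals through the MAP kinases to AP-1 and NF-κB. K562 cells carry erythroid and megakaryocytic potential, and under PMA they stop dividing, attach and take up megakaryocyte features. Enhancers of an earlier cell state can close over such a course when the factors that held them open are lost, while many promoters stay open through it. A peak call is a threshold on signal, so a site can lose much of its signal and keep its peak, or lose the peak after a small change.

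Total counts ran from 12258890 in 6 h replicate 1 to 35548737 in 72 h replicate 2, and peaks per library from 61873 at 0 h to 142305 at 72 h. The 72 h libraries had 30934990 and 35548737 counts and the longest peak lists. The square root of the common dispersion was 0.166. At 0 h a peak lay at a gene end for all 4 genes of the line check (GATA1, TAL1, HBG1 and HBG2) and for 11 of 12 erythroid marker genes. The megakaryocyte markers had one for 5 of 10, and the lymphoid markers for 2 of 4 (CD3E and CD79A). None of the 319 sites lay at a gene end of these markers. Peaks show open chromatin in a library and not which cells carried it.

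The sites that covered gene starts can be read as sequence. A RefSeq promoter window (GRCh38.p14, 250 bases before to 50 after a gene's start) was overlapped by at least 150 bases in 38 of the 319 sites, which gave 44 windows of 39 genes. Relative to 0 h, 10 of these sites were called lower at 6 h, 1 higher and 27 in neither direction. The 5 printed here are 2 that fell by 6 h (FHL2, SYT10), 2 that were not called then (TTC7B, EEF2) and the 1 that rose, chosen after their values were seen. They run 5′ to 3′ over the 250 bases before the start, all from the minus strand. Capitals mark every match, on either strand, to one of 10 motifs. The letters searched were AGATAA for GATA factors, TGANTCA for AP-1, CCGGAAG for the ETS family, GGGCGG for the KLF and SP families and CACGTG for the E-box of MYC. Others were CCAAT for the box of that name, TGTGGT for the RUNX family, TGACGTCA for the cyclic AMP response element (CRE), AATCNNNGC for GFI1, and the NRF1 motif.
FHL2, chr2:105438514-105438763: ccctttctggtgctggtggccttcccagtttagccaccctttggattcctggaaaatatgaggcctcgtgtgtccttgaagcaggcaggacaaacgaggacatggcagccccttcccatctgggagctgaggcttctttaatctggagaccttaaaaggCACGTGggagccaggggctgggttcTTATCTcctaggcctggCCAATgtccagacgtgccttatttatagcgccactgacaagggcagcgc
SYT10, chr12:33439820-33440069: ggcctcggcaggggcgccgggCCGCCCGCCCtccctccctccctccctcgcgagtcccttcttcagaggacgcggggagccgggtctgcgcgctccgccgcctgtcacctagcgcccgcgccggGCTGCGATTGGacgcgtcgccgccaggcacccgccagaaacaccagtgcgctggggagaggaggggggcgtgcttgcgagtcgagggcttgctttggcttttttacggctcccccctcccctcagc
TTC7B, chr14:90816431-90816680: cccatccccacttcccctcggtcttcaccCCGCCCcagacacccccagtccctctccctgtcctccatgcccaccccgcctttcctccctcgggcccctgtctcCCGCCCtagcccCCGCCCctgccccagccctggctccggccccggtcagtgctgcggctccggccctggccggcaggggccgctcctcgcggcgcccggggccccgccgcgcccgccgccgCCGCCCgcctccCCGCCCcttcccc
EEF2, chr19:3985464-3985713: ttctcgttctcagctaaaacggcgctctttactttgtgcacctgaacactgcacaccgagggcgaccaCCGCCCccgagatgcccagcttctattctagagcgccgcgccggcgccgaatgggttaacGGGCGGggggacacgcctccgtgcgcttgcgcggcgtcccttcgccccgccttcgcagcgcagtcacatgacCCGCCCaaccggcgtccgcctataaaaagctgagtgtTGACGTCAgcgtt
LOC105376356, chr10:3314003-3314252: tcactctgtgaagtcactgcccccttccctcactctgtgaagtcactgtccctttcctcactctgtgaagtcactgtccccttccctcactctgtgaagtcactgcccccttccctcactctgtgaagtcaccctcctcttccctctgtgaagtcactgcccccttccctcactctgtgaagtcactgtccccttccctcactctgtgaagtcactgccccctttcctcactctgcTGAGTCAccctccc

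The FHL2 window (FHL2 is a LIM-domain cofactor of transcription) held an E-box, a GATA match and a CCAAT box. The TTC7B window (TTC7B belongs to a phosphatidylinositol 4-kinase complex) held the KLF and SP letters 5 times. The EEF2 window (EEF2 is the elongation factor that moves the ribosome along mRNA) held a CRE match just before its start. The LOC105376356 window had no KLF and SP match. It repeats a 14-base unit, ctctgtgaagtcac, 8 times and has 2 AP-1 matches, of which the second lies after the start, outside the printed bases. It was the only 1 of the 44 windows with an AP-1 match (2.27%), against 7.71% of all 35116 windows. Of 14454 windows at kept sites, the 35800 sites that had a peak in every library, 4.95% had one.

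Across the 44 windows, the KLF and SP letters were present in 81.8%, against 73.7% at kept sites and 45.0% of all windows. The ETS letters were in 0 of 44 windows, against 20.1% at kept sites and 10.3% of all windows. GFI1 letters were in 20.5%, against 11.9% at kept sites and 11.0% of all windows, and the next values in brackets are in that order. The GATA letters were in 6.82% (4.64% and 10.3%), the CCAAT box in 36.4% (35.7% and 34.6%) and the E-box in 9.09% (9.96% and 7.26%). RUNX letters were in 6.82% (8.83% and 13.1%), CRE letters in 4.55% (3.49% and 1.85%) and NRF1 letters in 0% (2.61% and 1.24%). Median GC content was 70.0% in the 44 windows, 66.3% at kept sites and 58.7% in all windows. Windows of 1 gene can overlap each other, and the GFI1 and CCAAT letters can overlap, as in the SYT10 window. A match is a description of letters and no evidence of binding.

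The counts followed the peak rule at most sites. Accessibility is given as CPM, a site's count relative to the library total, scaled between libraries by the TMM method. Over the 319 sites the median CPM was 5.26 and 4.97 in the 0 h libraries, then 3.92 and 3.13 at 6 h, then 1.29 and 1.16 at 72 h. The 72 h libraries thus had the lowest medians, and both 6 h libraries lay between the others. The kept sites had medians of 13.2 and 13.5, then 12 and 12.6, then 8.77 and 9.03. The sites that lost their peak were therefore weaker at the start than the sites that kept it.

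**Figure D1:**
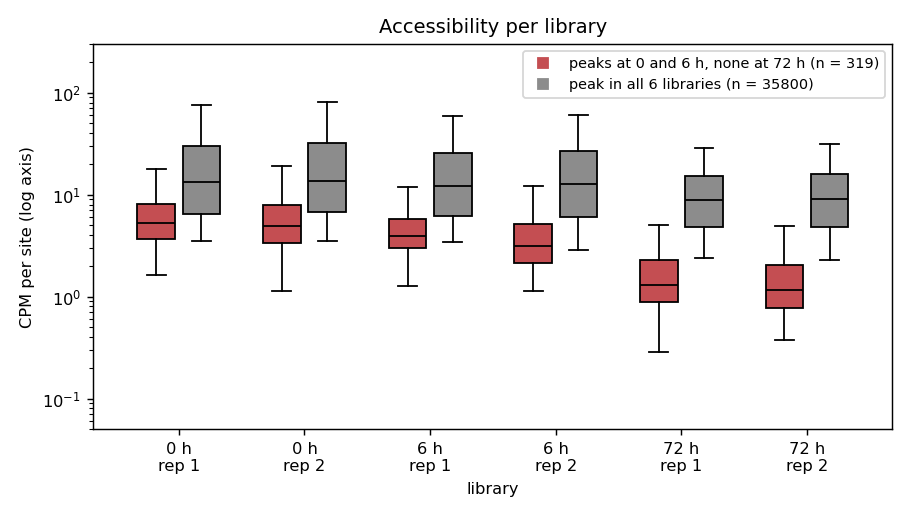
CPM per site on a log axis in each of the 6 libraries, for the 319 sites with peaks at 0 and 6 h and none at 72 h (red) and the 35800 kept sites with a peak in every library (grey). Boxes show the quartiles and the median and whiskers the central range from the 5th to the 95th percentile; the red medians go from 5.26 and 4.97 at 0 h to 1.29 and 1.16 at 72 h.

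The edgeR quasi-likelihood test was run on every site with enough counts, and a call means a Benjamini-Hochberg adjusted p under 0.05 over all 177759 of them. It tested 304 of the 319 sites, and 15 had too few counts. At 72 h against 0 h, 291 were called lower (29.2% of all tested sites were) and 1 higher (38.2% of all). At 72 h against 6 h, 279 were lower (20.9% of all) and 25 not called. The median log2 fold changes were −1.97 and −1.49. The rule chose the sites by their peaks in these contrasts, so these values describe the choice. Both 72 h libraries lay below every 0 h and 6 h library in 299 of the 304 sites.

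Membership followed a threshold on peak strength. The weakest −log10 q of the 4 peaks a site needed had a median of 6.37 over the 319 sites. It was at least 5 in 234 of them and under 3 in 5, with a lowest value of 2.53. Just outside the rule were 629 sites that had a peak in 1 of the 2 libraries at 72 h. Their medians were −0.46 at 6 h against 0 h and −1.51 at 72 h against 0 h, with median CPM of 1.94 and 1.70 at 72 h. Another 878 sites lacked a peak in 1 of the 2 libraries at 6 h and had none at 72 h, and their medians were −0.91 and −2.15.

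A fall in counts by 6 h was called at about 1 site in 3 under TMM scaling. Relative to 0 h, 101 of the 304 sites (33.2%) were called lower, 7 (2.30%) higher and 196 in neither direction. Without 6 h replicate 2 the number called lower was 52. Of all tested sites 16.8% were called lower and 23.4% higher. The median log2 fold change was −0.49, with quartiles of −0.86 and −0.20, against 0.05 over all tested sites. The median ratio of 6 h to 0 h libraries with the same replicate number was −0.35 and −0.57 on the log2 scale (SD 0.15, n = 2). The numbers were not taken to pair the libraries, so this SD holds for that matching only. Because the rule demanded a peak in both 6 h libraries, sites with a steep early loss were mostly kept out, and these values are a description of the sites so chosen.

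Sites that met the same demand at 0 and 6 h but kept their peaks differed little in the share called lower. Of 35751 tested kept sites, 35.0% were called lower at 6 h and 13.3% higher, with a median of −0.33. Those sites have more counts, which makes a small change easier to call. Within a mean of 2 to 5 CPM over the 0 and 6 h libraries, 39 of 156 of the late-lost sites (25.0%) were called lower, against 11.7% of 4561 kept sites. From 5 to 10 CPM the numbers were 47 of 113 (41.6%) and 23.9% of 9625. At 10 CPM or more they were 15 of 27 (55.6%) and 45.0% of 21534. In each of these 3 bands the late-lost sites also had the lower median, at −0.45, −0.56 and −0.61 against −0.25, −0.22 and −0.38. Below 2 CPM there were 8 and 31 sites, too few to compare, with medians of −0.36 and −0.39 and 0% called lower in both. No test of these differences was made, since the sites are not replicates.

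The 3167 early-lost sites, with peaks in both 0 h libraries and in none after it, mark the other end. Of 3162 tested, 85.3% were called lower at 6 h, with a median of −1.68, and the rule for those sites used that contrast.

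**Figure D2:**
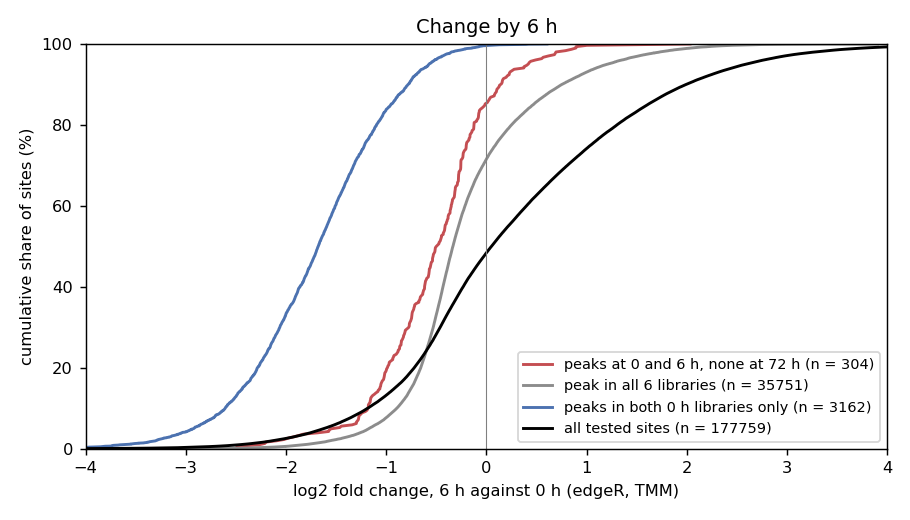
Cumulative share of tested sites (%) by log2 fold change at 6 h against 0 h, for the sites with peaks at 0 and 6 h and none at 72 h (red, 304), kept sites (grey, 35751), early-lost sites (blue, 3162) and all tested sites (black, 177759). The red curve has its median at −0.49, between the blue curve at −1.68 and the grey curve at −0.33.

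Without a model, both 6 h libraries lay below both 0 h libraries at 183 of 304 sites (60.2%), above them at 21 (6.91%), and overlapped them at 100. Over all tested sites 32% lay below and 36% above, and among kept sites 56.2% and 19.9%. Most of the 196 sites that were not called leaned the same way, since 158 had a negative and 38 a positive fold change, with a median of −0.29.

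The number of calls depended on how the libraries were scaled. Late-lost sites called lower at 6 h numbered 162 with loess offsets, 136 with RLE, 67 with total counts and 52 with TMM factors taken from the kept sites. Those called higher numbered 4, 5, 10 and 13. The median fold change was −0.77, −0.64, −0.36 and −0.20, negative under each of the 5 scalings. The median of all tested sites moved too, to −0.11, −0.10, 0.18 and 0.35. Kept sites had medians of −0.26, −0.48, −0.20 and −0.04, each nearer to 0 than that of the late-lost sites. Under all 5 scalings, 52 of the 304 sites (17.1%) were called lower, against 8.50% of all tested sites, and 4 (1.32%) higher, against 18.5%.

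**Figure D3:**
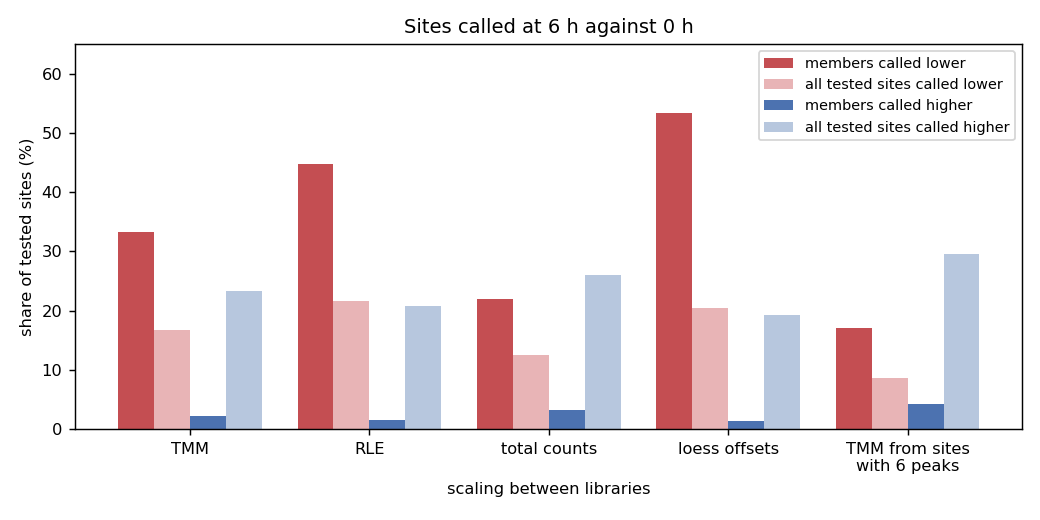
Share of tested sites (%) called lower (red) or higher (blue) at 6 h against 0 h under 5 scalings between libraries. Dark bars are the 304 tested sites with peaks at 0 and 6 h and none at 72 h, pale bars all 177759 tested sites; the dark red bar is above the pale red bar under every scaling, with 101 sites under TMM and 52 under TMM factors from kept sites, the bars at the right.

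Sites grouped by their call at 6 h had the following levels, where the grouping uses the 0 h values and a call is easier at high counts. The 101 called lower had a median of 7.82 CPM at 0 h, 3.70 at 6 h and 1.14 at 72 h. The 196 that were not called went from 4.38 to 3.69 and 1.32. The median log2 fold change from 6 h to 72 h was −1.54 and −1.45. The rule asked both groups for peaks at 6 h and none at 72 h, so this likeness describes the choice. By 6 h, 58 of the 101 had a fold change below −1. The 7 called higher had 5.31, 9.81 and 3.48 CPM.

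The largest early falls were named by rule, as the 8 most negative log2 fold changes among the sites called lower. The site in MAP4, which encodes a microtubule-associated protein, had 22.8 and 17.3 CPM at 0 h, then 4.94 and 2.62 at 6 h, then 1.03 and 0.872 at 72 h (chr3 47871129 to 47872045). Its change at 6 h was −2.49 (SE 0.27, edgeR adjusted p = 2.7e-07). The site in ANKRD12, a gene for an ankyrin repeat protein, had 18.5 and 12.7, then 3.75 and 2.18, then 1.09 and 0.495 CPM (chr18 9191463 to 9192146). Its change was −2.47 (SE 0.32, edgeR adjusted p = 2.0e-06). In both, no 6 h library came near a 0 h library.

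The site 17399 bases before the start of RNASE1, a secreted ribonuclease, had 13.9 and 7.21, then 2.30 and 2.09, then 0.724 and 0.802 CPM, a change of −2.27 by 6 h (edgeR adjusted p = 5.9e-06). The site in MCM3AP, whose product acts in mRNA export, had 19.6 and 9.75, then 3.41 and 2.97, then 0.957 and 1.32 CPM. The 0 h libraries stood far apart at both sites, and each still lay above both 6 h libraries. The site in ERO1B, an oxidase for disulfide bonds of the endoplasmic reticulum, had 15.7 and 15.4, then 4.09 and 2.88, then 0.828 and 1.18 CPM.

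The other three lay by RNF216, RBM19 and IDH3B. The site 16001 bases from RNF216, a ubiquitin ligase, had 12.3 and 11.2, then 2.90 and 2.66, then 0.802 and 0.495 CPM. The site 61133 bases from RBM19, an RNA-binding protein of ribosome assembly, had 7.15 and 5.02, then 1.70 and 1.36, then 0.621 and 0.731 CPM. The last covered the end of IDH3B, a subunit of mitochondrial isocitrate dehydrogenase, and overlapped NOP56, a core protein of box C/D small nucleolar RNPs (chr20 2658142 to 2659220). It had 12.8 and 25.6, then 5.03 and 4.81, then 1.45 and 0.990 CPM, and its change of −1.98 was −1.38 without 0 h replicate 2 and −2.45 without 0 h replicate 1.

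Among the 8 sites with the highest mean CPM over 0 and 6 h, 3 fell by 6 h and 5 were not called. The site 3310 bases before the start of PRKAA1, the catalytic α1 subunit of AMP-activated kinase, had 55.6 and 62.9 CPM at 0 h, then 17.9 and 21.8 at 6 h, then 5.30 and 4.90 at 72 h (chr5 40801684 to 40802592). It fell by 1.57 on the log2 scale by 6 h (SE 0.16, edgeR adjusted p = 1.2e-07) with a change of −1.97 from then to 72 h. The site in GSE1, a component of co-repressor complexes, had 44.3 and 50.3, then 20.8 and 21.5, then 8.48 and 9.38 CPM, a change of −1.16 by 6 h (edgeR adjusted p = 5.3e-06). The site in KRT8, a keratin of intermediate filaments, had 35.0 and 34.2, then 16.4 and 16.9, then 6.67 and 5.92 CPM, a change of −1.05 (edgeR adjusted p = 3.8e-05). At these 3 the libraries of each time lay close together and apart from the next time.

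The site at the 3′ end of SLC35B2, the Golgi transporter of the sulfate donor PAPS, was the strongest of those not called (chr6 44254403 to 44255925). It had 40.2 and 62.0 CPM at 0 h, then 35.3 and 60.7 at 6 h, then 10.5 and 11.5 at 72 h. The 0 h and 6 h libraries overlapped, with a change of −0.08 (SE 0.21, edgeR adjusted p = 0.79) that turned positive under 3 other scalings. The site in AIF1L, an actin-binding protein, had 29.6 and 27.4, then 29.0 and 19.95, then 9.54 and 6.86 CPM. A site on the unplaced scaffold KI270745v1 had 30.3 and 30.0, then 38.9 and 23.2, then 6.00 and 5.56 CPM, and its 6 h libraries lay on both sides of the 0 h ones.

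The 2 remaining were in ARHGEF2 and BCR. ARHGEF2 encodes a microtubule-bound guanine nucleotide exchange factor, and its site, which covers RefSeq starts of the gene inside its outermost end, had 23.7 and 26.9, then 17.7 and 22.6, then 9.10 and 11.0 CPM. BCR is the gene joined to ABL1 in the fusion kinase of K562, and its site had 24.9 and 23.6, then 21.6 and 19.2, then 9.08 and 8.84 CPM. The changes at 6 h were −0.32 (edgeR adjusted p = 0.17) and −0.25 (edgeR adjusted p = 0.25), although both 6 h libraries lay below both 0 h libraries in each. Sites near PRODH, in CASZ1 and in PARVB were the next strongest that were not called, with changes of −0.18, −0.43 and −0.29. CASZ1 was called lower under RLE and DESeq2 (−0.58 in both) and without 0 h replicate 2 (−0.66), and PARVB without 0 h replicate 1 (−0.66).

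**Figure D4:**
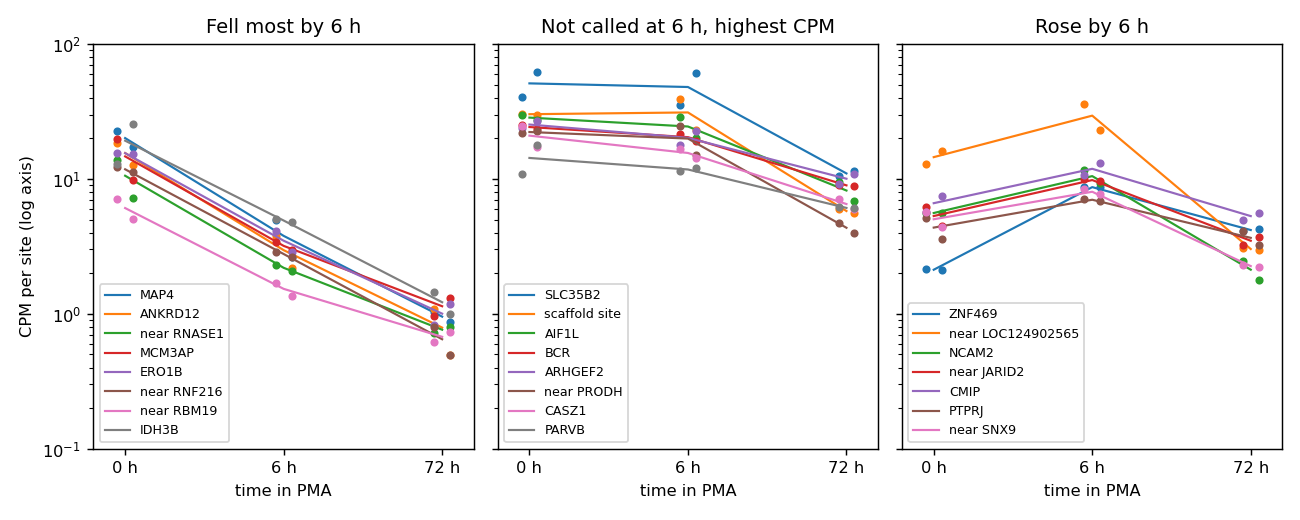
CPM of 23 sites in each library (points, log axis) with the mean of each time (lines), at 0, 6 and 72 h of PMA. Left, the 8 largest falls by 6 h; middle, the 8 with the highest 6 h CPM that were not called at 6 h; right, the 7 that rose by 6 h, of which the site near LOC124902565 is the one at the LOC105376356 start.

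Only 7 sites were called higher at 6 h before their peak was lost, and 4 of them (ZNF469, LOC105376356, near JARID2 and CMIP) were so under all 5 scalings. The site in ZNF469, a zinc finger gene, had 2.14 and 2.10 CPM at 0 h, then 8.69 and 8.69 at 6 h, then 4.14 and 4.22 at 72 h (chr16 88247736 to 88248342). It rose by 2.03 on the log2 scale (SE 0.27, edgeR adjusted p = 2.6e-06), and it was the 1 site that was also called higher at 72 h than at 0 h, by 0.98. In that contrast the sites in CMIP (−0.33, edgeR adjusted p = 0.22) and PTPRJ (−0.24, edgeR adjusted p = 0.43) were not called. Those at LOC105376356, in NCAM2, near SNX9 and near JARID2 were called lower, at −2.26, −1.40, −1.14 and −0.60 in that order. The site at the start of LOC105376356, with the repeated unit shown above, had 13 and 16.0, then 35.7 and 23.2, then 3.05 and 2.99 CPM (chr10 3313772 to 3315108). It rose by 1.00 (SE 0.21, edgeR adjusted p = 0.00053) and then fell by 3.27. Without 6 h replicate 1 its rise was 0.67. How reads from repeated sequence were counted is not given in the sources used here.

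The other rises were below 1. The site in NCAM2, a neural cell adhesion molecule, had 5.59 and 5.59, then 11.6 and 9.39, then 2.46 and 1.79 CPM. The site 468138 bases from JARID2, a partner of Polycomb complex PRC2, had 6.17 and 4.44, then 9.97 and 9.64, then 3.26 and 3.70 CPM. The site in CMIP, a signalling adaptor, had 5.72 and 7.5, then 10.7 and 13, then 4.99 and 5.61 CPM. Changes by 6 h were 0.89, 0.89 and 0.85 in that order. The call was lost with loess offsets for NCAM2 (0.61) and without 0 h replicate 2 for the site near JARID2 (0.67). For CMIP it was lost without 0 h replicate 1 (0.62) or 6 h replicate 2 (0.64).

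The 2 weakest were the site in PTPRJ, a receptor tyrosine phosphatase, and the site 1958 bases from SNX9, a sorting nexin of endocytosis. PTPRJ had 5.13 and 3.58, then 7.16 and 6.86, then 4.09 and 3.23 CPM, a change of 0.69 (SE 0.27, edgeR adjusted p = 0.041). SNX9 had 5.65 and 4.40, then 8.35 and 7.71, then 2.30 and 2.22 CPM, a change of 0.68 (SE 0.25, edgeR adjusted p = 0.034). Both calls were lost under RLE, loess offsets and DESeq2, and whenever a library other than 0 h replicate 1 was left out, with changes of 0.45 to 0.67 for PTPRJ and 0.50 to 0.69 for SNX9.

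Of the late-lost sites, 8 lay near genes of the 8 lists examined for this system. Of 2665 tested sites whose nearest gene end, within 50000 bases, belonged to a listed gene, 8 (0.30%) were among the late-lost sites. Of all tested sites, at any distance from a gene, the share was 0.171%. The second share also takes in sites farther than 50000 bases from an end, 20% of the late-lost sites and 30.2% of all sites. None lay near the 41 erythroid genes (0 of 298 tested sites), the 37 megakaryocyte genes (0 of 303) or the 15 housekeeping genes (0 of 100). At a share of 0.171%, lists with so few tested sites can easily hold none, so nothing is read from this. The 45 haematopoietic transcription factor genes had 3 of 660, the 35 genes of PMA signalling 2 of 412, and the immediate early, cell cycle and other blood lineage lists 1 each.

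The 2 near signalling genes were called lower by 6 h. The site in RELB, a subunit of NF-κB, had 7.02 and 5.88, then 4.94 and 3.1, then 1.27 and 1.27 CPM, a change of −0.73 (SE 0.29, edgeR adjusted p = 0.046). The site listed with CISH, a cytokine signalling inhibitor gene, lies 4953 bases before its start and covers a RefSeq promoter window of MAPKAPK3, a kinase gene. It had 18.3 and 19.0, then 11.2 and 13.8, then 7.27 and 7.5 CPM, a change of −0.56 (SE 0.19, edgeR adjusted p = 0.025). Both calls were lost under total counts and under TMM factors from kept sites. That of RELB was also lost without 0 h replicate 1 (−0.67), 6 h replicate 2 (−0.43) or either 72 h library (−0.78), and that by CISH without 0 h replicate 2 (−0.52) or 6 h replicate 1 (−0.42).

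The other 6 were not called at 6 h. The site in E2F2, a transcription factor of the cell cycle, had 6.56 and 5.54, then 3.32 and 4.33, then 0.621 and 0.849 CPM. Its change at 6 h was −0.63 (edgeR adjusted p = 0.081), and it was called lower under RLE and loess offsets. The site in NFIA, a factor of erythroid fate, had 4.22 and 3.54, then 5.71 and 4.74, then 1.14 and 0.920 CPM, a change of 0.42 (edgeR adjusted p = 0.25). The site near LMO2, a cofactor of the GATA1 and TAL1 complex, had 2.47 and 2.58, then 2.39 and 2.40, then 1.58 and 0.872 CPM. Sites near KLF13, TCF7 and IER3 had changes of −0.13, −0.28 and 0.02.

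Most of the sites were away from gene ends. Distances were measured to either outermost end of 20037 protein-coding RefSeq genes, not to starts inside a gene, and 4 of the 319 sites lay on scaffolds without such genes. Within 1000 bases of an end were 48 of 315 (15.2%). Of these, 27 were assigned to a start, 9 to a stop and 12 to an end of a gene without a given strand. An end itself lay inside 29 of the sites. Where a site held several ends, a start was taken first. Among kept sites 31.5% were within 1000 bases of an end, among early-lost sites 6.94%, and among all sites 10.7%. The share thus lay between those of the sites that kept their peaks and those that lost them by 6 h. It was not particular to the late-lost sites. Sites with a peak in 1 of the 2 libraries at 72 h had 16.6%. Those lacking a peak in 1 of the 2 libraries at 6 h, with none at 72 h, had 12.2%.

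The median distance to an end was 16697 bases (quartiles 4643 and 39488), against 8617 for kept sites, 19407 for early-lost sites and 21653 for all sites. Farther than 50000 bases were 63 sites (20%), against 30.2% of all. Inside a protein-coding gene were 198 (62.9%), against 64.7% of kept sites and 54.5% of all. The tables give gene intervals only, so exons and introns were not told apart. Sites were 200 to 1523 bases wide with a median of 620, against 879 for kept sites, and a wider site reaches an end more easily.

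**Figure D5:**
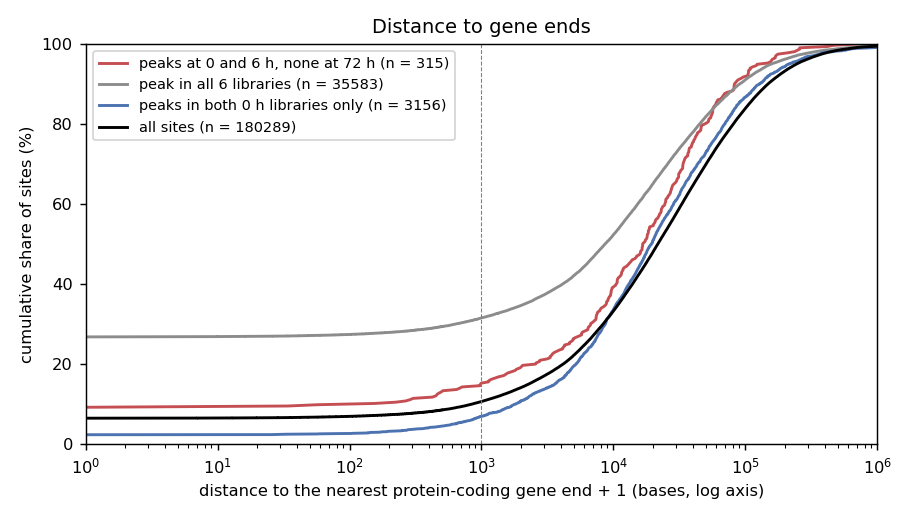
Cumulative share of sites (%) by distance to the nearest end of a protein-coding gene, plus 1 base, on a log axis, for sites with peaks at 0 and 6 h and none at 72 h (red, 315), kept sites (grey, 35583), early-lost sites (blue, 3156) and all sites (black, 180289). At the dashed line of 1000 bases the curves stand at 15.2%, 31.5%, 6.94% and 10.7%.

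Early falls occurred both at gene ends and away from them. Of the 48 sites at ends, 13 (27.1%) were called lower by 6 h, with a median of −0.50. Of 252 tested sites farther away, 86 (34.1%) were called lower and all 7 rises were among them, with a median of −0.48. The sites at ends were stronger, with a median of 7.81 CPM at 0 h against 4.93.

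Named sites at gene ends that fell included FHL2, with 8.71 and 7.45, then 4.18 and 3.23, then 0.854 and 0.778 CPM, a change of −1.15 by 6 h (SE 0.27, edgeR adjusted p = 0.0016). SYT10, a synaptotagmin gene, had 14.4 and 21.4, then 8.95 and 10.4, then 2.04 and 1.72 CPM, a change of −0.88 (SE 0.22, edgeR adjusted p = 0.0033). The start of TTC7B had 6.95 and 6.26, then 6.99 and 5.94, then 2.25 and 2.05 CPM, a change of −0.04 by 6 h, and its 0 h and 6 h libraries overlapped. EEF2 had 8.97 and 7.93, then 7.67 and 6.39, then 2.82 and 2.52 CPM, a change of −0.28 (edgeR adjusted p = 0.37). The steepest fall at an end after that of IDH3B was at ZMIZ2, a cofactor of nuclear receptors, with 12 and 13.3, then 4.69 and 3.41, then 1.16 and 1.08 CPM and a change of −1.68. These 5 sites were chosen after their values were seen.

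The sites were scattered over the genome and rarely shared a gene. They had 303 different nearest genes, of which 9 were nearest to 2 sites (among them MCU, LARP1B, CEP350 and PRSS1). A further 1, ANKRD18B, was nearest to 4 sites, of which 3 were not tested. Of the 15 untested sites, 11 had another untested site within 1000 bases, and such neighbours can share a nearest gene. Chromosome 19, rich in genes, held 22 (6.90%, against 3.43% of all sites) and chromosome 18 held 1 (0.313%, against 1.88%). Within 10000 bases a site had a median of 3 other sites and at most 8, and 24 had none. Another late-lost site was that near in 12 cases, and a kept site in 148 (46.4%).

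Their neighbours were called in both directions. Of 939 tested neighbours within 10000 bases, counted once for each site they lay near, 272 (29.0%) were called lower at 72 h than at 6 h and 147 (15.7%) higher. Over all tested sites these shares were 20.9% and 22.1%. Against 0 h, 326 (34.7%) were lower at 72 h and 308 (32.8%) higher, and over all tested sites 29.2% and 38.2%. The neighbours were thus called lower somewhat more often, and higher less often, than sites at large, and no test of this was made. At 95 of the 319 sites (29.8%) at least 1 neighbour was called higher at 72 h than at 6 h.

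The authors' deposited table gives its own fold changes for the same sites. Their median in the authors' deposited table was −0.52 at 6 h and −2.04 at 72 h, and 290 of the 304 tested sites had an adjusted p under 0.05 there. That adjusted p was the same for 6 h and 72 h at every site, so the 290 cannot be assigned to either time. That table assigns 161 of the 319 sites to its class static, 95 to upLate, 34 to downEarly, 22 to upEarly and 7 to downLate. All 117 sites in the 2 classes named up had a negative log2 fold change at 72 h in the authors' deposited table. Over all sites of the authors' deposited table, the median at 72 h was 2.261 in upEarly, 2.277 in upLate, 2.257 in downEarly and 2.296 in downLate. The names of the 2 down classes thus go against their medians over all sites, and those of the up classes against the late-lost sites in them. The classes were not used here.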

How the data were processed

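ATAC-seq was done on K562 cells, prepared by the Omni-ATAC method per the labels' protocols. The submitters' processing notes name Trim Galore 0.4.3, BWA 0.7.17, SAMtools 1.9, deepTools 3.0.1, MACS2, bedtools 2.26, DESeq and the build hg38, without their roles. The authors deposited raw counts per site and library, read from whole numbers with differing totals, with their own log2 fold changes and adjusted p-values. Their peak files, 1 per library, hold −log10 q-values, p-values, fold enrichments and scores in the narrowPeak layout, as deposited by the authors; only positions and q-values were used. How the sites were listed and any shift of read ends are not given in the sources used here. Table starts are 0-based and 1 was added.

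The count model was edgeR 4.0.16 under R 4.3.3 (TMM, minimum count 10, all 6 libraries in 3 groups), with Benjamini-Hochberg adjustment over 177759 tested sites; 3376 were not tested. The fit was tested on simulated counts. Replicates differed beyond sampling noise (chi-square per degree of freedom 5.53, 4.69 and 3.54). Alternatives were RLE, total counts, loess offsets (limma 3.58.1), TMM from kept sites, DESeq2 1.42.0, no filter, a stricter threshold, a replicate block, leaving out each library, and stricter member rules. Named sites were the 8 with the highest mean CPM at 0 and 6 h, the 8 largest changes each way by 6 h, the 8 strongest not called, those near listed genes and the genes nearest to most sites. The sites, gene lists and motifs were chosen with earlier results of these data known. Genes and promoter sequences are from RefSeq tables of GRCh38.p14, matched by position.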

Additional observations from a re-analysis of the deposited data

How the results depend on the processing

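Every alternative left more of the late-lost sites called lower than higher at 6 h against 0 h and kept their median fold change negative. The count called at 6 h, 108, became 166 under loess offsets, 65 under TMM factors from the kept sites and 54 under an adjusted p under 0.01 with an absolute log2 fold change above 1. It ranged from 56 (without 6 h replicate 2) to 108 over fits that left out 1 library. The median of −0.49 became −0.77 under loess offsets and −0.20 under the kept-site factors, and ranged from −0.62 to −0.40 when 1 library was left out. At 72 h against 6 h the 279 calls became 163 under the kept-site factors and 230 with total counts. At 72 h against 0 h the 292 calls became 209 and 262 in that order. Counting only peaks over at least 50% of a site gave another set, of 235 sites with 25.3% at gene ends, and a −log10 q minimum of 5 gave one of 294 sites. Both sets hold sites outside the 319. The cause of these differences was not tested.

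Among named sites, signs turned only at those not called in the TMM fit of all 6 libraries. SLC35B2 was at 0.19 under loess offsets, 0.056 with total counts and 0.22 under the kept-site factors. Under those factors AIF1L was at 0.062, BCR at 0.041, the site near PRODH at 0.11, PARVB at 0.013, LMO2 at 0.22, KLF13 at 0.17 and TCF7 at 0.021. Total counts gave LMO2 0.058 and KLF13 0.011. The scaffold site was at −0.13 under RLE and −0.12 under DESeq2, and the site near IER3 at −0.13 under RLE, −0.32 under loess offsets and −0.13 under DESeq2. Leaving out 1 library gave ranges of −0.59 to 0.28 for SLC35B2, −0.37 to 0.31 for the scaffold site, −0.57 to 0.10 near PRODH, −0.66 to 0.13 for PARVB, −0.45 to 0.16 for KLF13 and −0.089 to 0.056 for IER3.

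Deviations of libraries with the same replicate number correlated at 0.08, 0.05 and 0.09, so the numbers were not taken to pair them. With the replicate number as a block 118 sites were called at 6 h, 111 lower and 7 higher, and the scaffold site was at −0.0069.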

Other observations

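Of the 319 sites, 15 had too few counts to be tested, although all had peaks at 0 and 6 h. They were 200 to 222 bases wide and held 0 to 10 counts in any library, with a median sum over the 6 libraries of 12. Tested sites of the set summed to at least 117, with a median of 467.5. The −log10 q of the peaks over the 15 ran from 4.11 to 135, with a median of the strongest of 37.0, against 16.3 for the tested sites. Another untested site lay within 1000 bases of 11 of them, and 4 were in a gene. Over the whole table, 87 sites had a −log10 q of 20 or more in both 0 h libraries and under 50 counts in all 6 libraries together. Of these, 45 had a peak in all 6 libraries and 2 were among the 319.

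A few tested sites without a 72 h peak had counts little below those at 6 h, or above them. The site 36670 bases from the start of CLPB, a mitochondrial disaggregase, had 4.87 and 3.39 CPM at 0 h, then 3.58 and 2.18 at 6 h, then 4.63 and 3.32 at 72 h (chr11 72471201 to 72471808). No 72 h peak was listed there, while its 72 h counts overlapped those at 0 h, with a change of −0.04 (edgeR adjusted p = 0.90). The site at C16orf74, at the gene's start, had 5.20 and 5.21, then 4.18 and 3.95, then 3.67 and 3.40 CPM, lowest in both 72 h libraries and not called at 72 h against 0 h (−0.56, edgeR adjusted p = 0.053). In all, 8 of the 304 tested sites had a log2 fold change above −0.5 at 72 h against 6 h. These sites were chosen after their values were seen.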
